A study of Homo sapiens with 32 samples.

Results

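This account describes 19205 narrow regions of N6-methyladenosine (m6A) enrichment that were called in all 6 libraries of PANC-1, a long-established cell line derived from a human carcinoma of the pancreatic duct. They are 11% of the 174376 regions formed by joining every peak of the 3 deposited lists where peaks overlap. A control peak qualified if it lay on chromosomes 1 to 22, was narrower than 2000 bp and overlapped by at least 1 bp a peak of the other control library and of all 4 knockout libraries. Of the 150692 narrow control peaks on these chromosomes, 37949 qualified (25.2%), and those that overlapped were joined to 1 region. The regions were thus chosen by measured values, namely the calls of all 6 libraries and the width of the control peaks. Presence, strength and number are therefore given as a description, without a test.

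The study compared untreated control cells with cells labelled as knockouts of CFL1, which encodes cofilin 1, or of METTL3, all in the PANC-1 background. Each group had 2 anti-m6A antibody samples and 2 inputs of total RNA, and the lists hold peaks of 2 libraries per group. Each library is called here by the number its peaks carry, which is 1 or 2 in control and 3 or 5 in either knockout. Peaks of the knockout libraries also carry si in their names, although the samples are labelled as knockouts. How the knockouts were made, and whether a line is 1 clone, is not stated in the sources used here. Loss of either protein was not checked, because peak lists do not show it. No label tells whether the libraries of 1 group were grown as separate cultures, so p-values measure only the spread between libraries, which may be technical. The peak names of the control list and of the knockout lists carry different folder names. Any difference in handling between the control and knockout libraries cannot be told apart from the knockouts.

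m6A is the most common internal modification of messenger RNA. A complex of METTL3 and METTL14 writes it, FTO and ALKBH5 can remove it, and proteins with a YTH domain bind it and alter the splicing, translation or decay of the RNA. In m6A-seq, RNA is broken into fragments, methylated fragments are pulled down with an antibody, and a peak marks where pulled-down reads pile up. The summit of a peak is the position of its highest pile-up, and the modified base is expected close to it. Cofilin 1 severs actin filaments, and the title of the series links it to m6A on RNA from super enhancers. METTL3 is the catalytic subunit of the writer, so sites that stay called in its knockout are a natural set to describe. Input RNA levels were not examined, so a peak value is not a methylation level.

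The regions spanned 200 to 3004 bp, with a median of 729 bp, and together covered 15.9 Mb. Most were joined from 2 control peaks (17249), 1239 rested on 1 control peak, and 717 on 3 or more. Every library held exactly 1 peak at 14988 regions (78.0%). The regions held 25.8% and 24.7% of all peaks of control 1 and 2, and 27.5% and 29.8% of those of CFL1 knockout 3 and 5. In METTL3 knockout 3 and 5 they held 30.3% of the peaks in each case. Among the 1000 peaks of highest −log10 q in a library, the share inside the regions was 85.3% and 85.8% in control, 76.4% and 79.3% in the CFL1 knockout, and 83.1% and 83% in the METTL3 knockout. The strongest peaks of every library therefore lay mostly, but not wholly, inside the regions.

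Fold enrichment is the authors' value per peak, a ratio over the background of the peak caller. Where a library had several peaks at a region, the peak with the highest −log10 q was used. A peak that overlapped several regions gave its values to each of them, and its summit could lie outside a region. Median fold enrichment at the regions was 5.82 in control 1 and 5.88 in control 2. It was 6.07 and 6.81 in the CFL1 libraries 3 and 5, and 7.18 and 7.69 in the METTL3 libraries 3 and 5. Over all peaks of the same libraries the medians were 4.15, 3.93, 4.62, 4.75, 4.66 and 4.75. Read depth is unknown from peak lists. Fold enrichment of different libraries is therefore given side by side only as a description, and strength is compared by rank. The spread among regions was wide in every library: the lowest 10% lay below 2.76 to 3.39 and the highest 10% above 12.7 to 18.7, depending on the library.

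The median peak at the regions was 634 and 671 bp wide in control 1 and 2. In the CFL1 libraries 3 and 5 it was 628 and 680 bp, and in the METTL3 libraries 715 and 679 bp. The CFL1 knockout and control overlapped, with a difference of group means of 1.5 bp. Both METTL3 knockout libraries lay above both control libraries, by 44.5 bp between means. No test is given, because control width was part of the rule. The regions are limited to narrow control peaks, whereas the knockout peaks at them had no limit, and this shows at the upper end. Peaks of 2000 bp or more stood at 1.5% and 2.73% of regions in control, 6.23% and 7.01% in the CFL1 knockout, and 7.58% and 6.23% in the METTL3 knockout. Since the rule limits control width, that difference is in part fixed by the choice of regions. Regions that a library split into more than 1 peak made up 4.69% and 2.92% in control, 9.71% and 9.10% in the CFL1 knockout, and 7.55% and 8.5% in the METTL3 knockout. All 4 knockout libraries lay above both control libraries, with 8.72% ± 0.920 against 3.8% ± 1.25 (SD, n = 4 and 2). Regions were joined from control peaks, which bears on how often control can be split, so this too is a description without a test.

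The position of the summit was not used to choose the regions, beyond the bound that overlap sets. That bound was looser for knockout peaks, which had no width limit, than for control peaks. Summit position set control apart from both knockouts. The median distance between the summits of the same region was 12 bp between the 2 control libraries, 21 bp between the 2 CFL1 knockout libraries and 14 bp between the 2 METTL3 knockout libraries. Between control and the CFL1 knockout it was 111 to 125 bp over the 4 pairs of libraries, and between control and the METTL3 knockout 111 to 114 bp. Between the 2 knockouts it was 33 to 40 bp. The 3 groups of values did not overlap: libraries of a group were closest, the knockouts stood between, and control stood farthest from either knockout. The mean distance within groups was 15.7 bp, and the next lowest of the 15 ways to pair the 6 libraries gave 27.7 bp (one-sided exact permutation p = 0.0667, as low as 15 pairings allow). That p-value bears on the likeness of libraries within groups and does not test control against knockout.

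**Figure D1:**
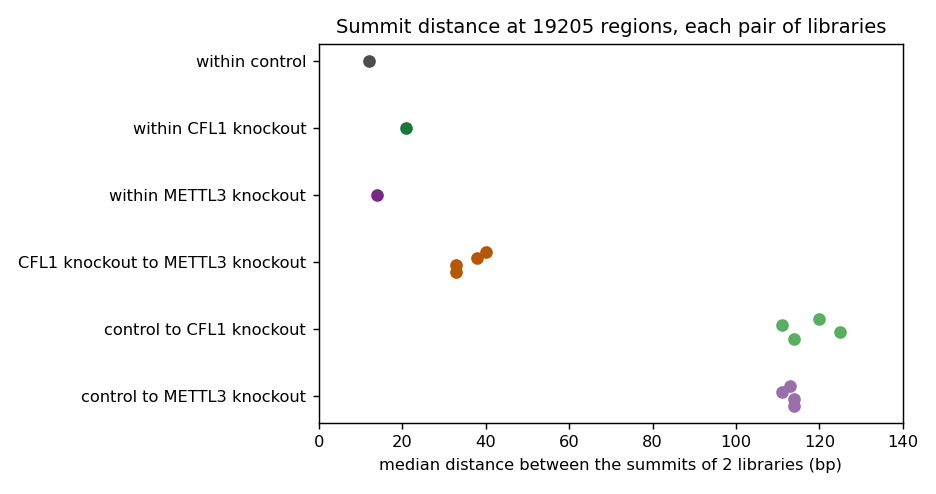
Median distance in bp (x axis) between the summits of 2 libraries over 19205 regions, 1 point for each of the 15 pairs of libraries, by kind of pair. Pairs of a control and a knockout library sit at 111 to 125 bp, pairs across the 2 knockouts at 33 to 40 bp and pairs within a group at 12 to 21 bp.

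In a typical region the control and knockout peaks therefore overlapped without sharing their highest point. Summits of the 2 control libraries lay within 50 bp of each other at 74.7% of regions, against 65.0% for the CFL1 knockout pair and 70.0% for the METTL3 knockout pair. Only 30.4% of regions had a control and a CFL1 knockout summit within 50 bp (mean of 4 pairs), and 32.0% a control and a METTL3 knockout summit. Across the 2 knockouts the share was 56.1%. The control summit still fell inside the CFL1 knockout peak at 87.3% of regions and inside the METTL3 knockout peak at 89.9%. Of the length covered by either of 2 peaks, the median share covered by both was 88.0% within control. It was 58.8% between control and the CFL1 knockout, 63.3% between control and the METTL3 knockout, and 75.9% between the knockouts.

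The shifts had no preferred direction along the reference. The CFL1 knockout summit minus the control summit, each averaged over 2 libraries, had a median of 0 bp and quartiles of -118.5 and 117.5 bp. For the METTL3 knockout the median was 0.5 bp and the quartiles were -110.5 and 112.5 bp. Both CFL1 knockout summits lay over 50 bp to the lower-coordinate side of both control summits at 4530 regions and to the higher side at 4493. Over all 20079 regions found in the 6 libraries, whatever their width and chromosome, the shares were 24.1% and 23.9%, and these regions serve as the background here. For the METTL3 knockout these counts were 4581 and 4578 (background 24.4% and 24.4%). Shifts of more than 500 bp stood at 12.9% and 13.3% of regions. The strand of the RNA is not in the peak lists, so a shift toward the start or the end of a transcript could not be read from these data.

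**Figure D2:**
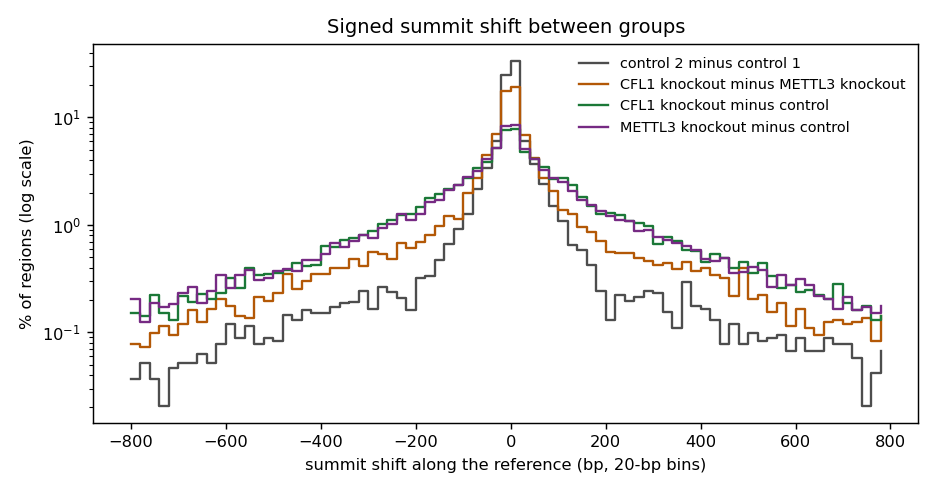
Share of regions (y axis, log scale) by signed summit shift in bp (x axis, 20-bp bins from -800 to 800 bp), with the 2 libraries of a group averaged except for the pair of control libraries. The curves are close to symmetric around 0 outside the 2 central bins. Shifts of exactly 0 fall in the bin that starts at 0. For control 2 minus control 1 that bin holds 33.4% of regions, and the bin that starts at -20 bp holds 24.9%. Both curves of a knockout against control have wider flanks than control 2 minus control 1 or the CFL1 knockout minus the METTL3 knockout.

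Stronger regions had closer summits, both within groups and between control and knockouts. Strength was taken as the lowest −log10 q over the 6 libraries. At the 3711 regions where it was under 5, the median summit distance was 34 bp within control, 50 bp within the CFL1 knockout and 36 bp within the METTL3 knockout. At the 1709 regions where it was at least 100, these fell to 4 bp, 5 bp and 3 bp, and the distance across the 2 knockouts to 11.5 bp. From control to the CFL1 knockout the distance was 132 bp in the weakest class and 95.5 bp in the strongest, and from control to the METTL3 knockout 133 bp and 91.5 bp. In the strongest class all 8 pairs of a control and a knockout library lay between 91 and 99 bp, and all 4 pairs across the knockouts between 11 and 12 bp.

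**Figure D3:**
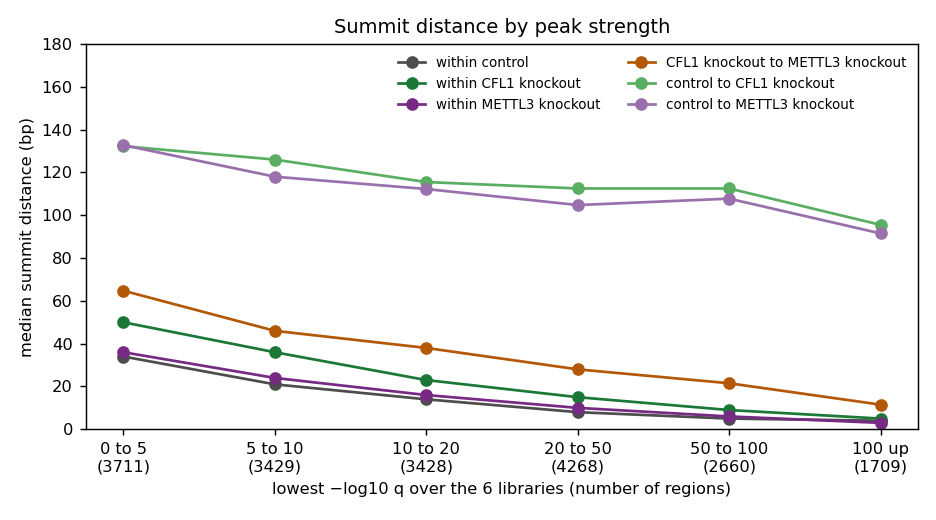
Median summit distance in bp (y axis) by class of the lowest −log10 q over the 6 libraries (x axis, with the number of regions), 1 line for each kind of pair of libraries, averaged over its pairs. Lines within groups drop to 3 to 5 bp in the strongest class, whereas the lines from control to a knockout stay at 91.5 bp or more.

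The distance from control was larger where control peaks were wide. The distance from control to the CFL1 knockout was 56 bp at the 1670 regions where control peaks averaged under 300 bp, 115 bp at 500 to 800 bp, and 262 bp at 1200 bp or more. Distances within control stayed at 12 to 13 bp in every width class. At the 14988 regions with 1 peak in every library the control to CFL1 knockout distance was 100 bp, and the control to METTL3 knockout distance 95.5 bp. At the 8486 of them where all 6 peaks were under 1000 bp it was 69 bp and 64 bp, against 21.5 bp between the knockouts and 9 bp within control. Without split peaks and wide peaks the separation was thus smaller, and still several times the distance within control.

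Counted region by region, the summits of all 4 knockout libraries lay more than 50 bp to 1 side of both control summits at 6524 regions, or 34.0%. Over the 20079 regions of the background 35% did so. The narrow regions were near that share, and they make up most of the background. Neighbouring regions that meet the same peak share its summit, so these are not counts of independent sites. For the CFL1 knockout alone the share was 47.0% (background 48%), and for the METTL3 knockout alone 47.7% (background 48.8%). Both CFL1 knockout summits lay over 50 bp to 1 side of both METTL3 knockout summits at 17.4% of regions (background 17.5%), with 1667 to the lower side (background 8.67%) and 1683 to the higher side (background 8.86%). Of the 6524 regions, 3277 had the knockouts to the lower side (background 17.5%) and 3247 to the higher side (background 17.4%). By chromosome the share with all 4 knockouts apart ran from 29.6% on chromosome 22 to 36.9% on chromosome 20.

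The clearest single examples were picked after the values were seen, from 482 strong regions. Strong here means a lowest −log10 q over the 6 libraries of at least 100, not a high fold enrichment. In these 482 regions the control summits lay within 10 bp and the 4 knockout summits within 20 bp. At 249 of them (51.7%) control and knockouts were more than 50 bp apart, and at 119 (24.7%) more than 200 bp. Close summits within groups were part of this choice, so these shares cannot be set against the share over all regions. At chr19:39915032-39916914 the control summits were at 39916134 and 39916138. The 4 knockout summits were between 39913998 and 39914002, some 2132 bp away. The control peaks there were 1861 and 1883 bp wide, and the knockout peaks 3112 to 3690 bp. By fold enrichment this region was weak, with a percentile of 9.52 and 14.6 in control and 5.04 to 18.2 in the knockouts. At chr6:90572653-90574046 both control summits were at 90573870 and the knockout summits at 90572134 to 90572145. Its percentile by fold enrichment within a library was 86.6 and 85.0 in control and 50.7 to 69.1 in the knockouts. It thus also ranked lower in all 4 knockout libraries. The control peaks there were 1394 and 1374 bp wide, and the knockout peaks 1221 to 2345 bp. At chr5:140857044-140858102 the control summits were 1 bp apart, at 140857487 and 140857488, and the knockout summits at 140855638 to 140855643. The control peaks there were 1044 and 1057 bp wide, and the knockout peaks 2637 to 2650 bp. At each of these examples every knockout summit lay outside the region. The regions count as shared by the overlap rule, yet the 2 sets of summits mark different places.

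Strength order was also shared within groups more than between control and knockouts. Regions were ranked by fold enrichment within each library, as a percentile among the same 19205 regions. Spearman's rho between libraries, across regions that share a library and its depth, was 0.79 within control, 0.70 within the CFL1 knockout and 0.75 within the METTL3 knockout. It was 0.35 to 0.40 between control and the CFL1 knockout, 0.41 to 0.43 between control and the METTL3 knockout, and 0.59 to 0.64 between the knockouts. Peak widths gave the same order, with 0.78 within control and 0.39 to 0.48 between control and a knockout. The top 10% of a library held 1918 regions. Both control libraries had 1091 regions (56.9%) in their top 10%, both CFL1 knockout libraries 920 (48.0%) and both METTL3 knockout libraries 1042 (54.3%). All 4 knockout libraries had 386 (20.1%), and all 6 libraries 74 (3.86%). Of the 1091, 521 were in the top 10% of no knockout library, and of the 386, 239 were in the top 10% of neither control library. The bottom 10% overlapped more, with 202 of 1920 regions in all 6 libraries. These counts were not made over the background regions, so they only describe the 19205 regions.

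In the CFL1 knockout, 5773 regions (30.1%) had a higher rank in both libraries than in both control libraries, and 6042 (31.5%) a lower rank. Over all regions found in the 6 libraries these shares were 30.1% and 31.6%. In the METTL3 knockout the counts were 5883 higher (30.6%, background 30.8%) and 6013 lower (31.3%, background 31.5%). In all 4 knockout libraries at once, 3732 regions ranked higher (19.4%, background 19.5%) and 4055 lower (21.1%, background 21.3%). Both knockouts were set against the same control libraries. Neighbouring regions that meet the same peak also share its fold enrichment, so the regions counted are not independent. Between the knockouts, 4246 regions ranked higher in the CFL1 knockout (22.1%, background 22.1%) and 4843 lower (25.2%, background 25.2%).

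A small set of regions met strong peaks in every library. Ranked by the lowest of its 6 percentiles, the first region was chr1:149287839-149288930, above the 99th percentile in every library. Its fold enrichment was 27.0 and 25.9 in control 1 and 2, 34.4 and 74.8 in the CFL1 libraries and 46.0 and 46.6 in the METTL3 libraries. The knockout peaks there were 2042 to 3603 bp wide, and the summit of METTL3 knockout 5, at 149289461, lay outside the region. At chr9:99488320-99489679 the values were 19.5, 22.2, 29.2, 47.3, 56.0 and 37.4 in the same order. The 6 summits there lay between 99489304 and 99489345, so this region was strong and stable in position. At chr16:89266121-89267532 the summits also stayed close, between 89267280 and 89267303. Fold enrichment there was 50.8 and 42.3 in control, 33.2 and 25.6 in the CFL1 knockout, and 36.7 and 38.0 in the METTL3 knockout. The other 5 were chr8:143359000-143360567, chr7:144033595-144034047, chr19:197132-197629, chr18:55145188-55146486 and chr16:2611582-2612644, with fold enrichments of 18.1 to 85.1. At the last of these the summits were close within each group but far apart between groups. They were at 2612432 and 2612394 in control, 2613778 and 2613827 in the CFL1 knockout, and 2611007 and 2610994 in the METTL3 knockout. The knockout peaks there were 3253 to 5814 bp wide, and all their summits lay outside the region.

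The 4 regions with the largest gain in rank in all knockouts were weak in control, which follows from choosing them by the rank gap. At chr9:67794317-67794800 fold enrichment was 2.67 and 2.75 in control, 21.7 and 23.9 in the CFL1 knockout, and 57.5 and 61.6 in the METTL3 knockout. Its control peaks were 420 and 475 bp wide and the knockout peaks overlapping them 3023 to 3487 bp, with summits outside the region. Values at such a place describe a broad knockout peak that reaches over a small control peak. At chr16:2694554-2694927 they were 2.82, 2.95, 26.5, 37.5, 59.1 and 57.0 from control 1 to METTL3 knockout 5, with the 4 knockout summits at 2695284 to 2695306, again outside the region. At chr17:44408949-44409267 the values were 2.36, 2.45, 16.3, 27.5, 40.4 and 40.0. All 6 summits lay between 44409129 and 44409179, so here the same place was called in every library. The fourth was chr7:74265458-74265769, at 2.51 and 2.21 in control and 17.3 to 27.4 in the knockouts. For the CFL1 knockout alone the largest gain was at chr21:44479875-44480340, with 2.28 and 1.70 in control and 21.8 and 22.4 in the CFL1 knockout. The METTL3 knockout had 6.62 and 8.0 there, between the other groups.

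Regions that dropped in rank held narrower knockout peaks in 3 of the 4 named cases. At chr1:212502287-212502661 fold enrichment was 19.998 and 22.3 in control, 2.12 and 2.55 in the CFL1 knockout, and 2.29 and 2.21 in the METTL3 knockout. Its 6 summits lay within 212502461 to 212502483. This region had the largest drop in all knockouts and in the METTL3 knockout alone, and it was called in every library although its fold enrichment was in the lowest 10% in each knockout library. At chr5:16463307-16463985 the values were 11.5, 13.9, 2.14, 2.12, 2.47 and 2.80, and the peak width went from 655 and 669 bp in control to 217 to 383 bp in the knockouts. At chr19:932003-932740 they were 15.3, 17.5, 2.03, 3.35, 2.30 and 2.0, and at chr19:49611184-49611761 they were 13.7, 12.3, 2.25, 2.30, 2.72 and 2.24. For the CFL1 knockout alone the largest drop was at chr19:18942808-18943160, from 24.1 and 32.1 in control to 1.80 and 2.41. The METTL3 knockout kept 3.89 and 4.81 there, and all 6 summits lay between 18942972 and 18943009.

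**Figure D4:**
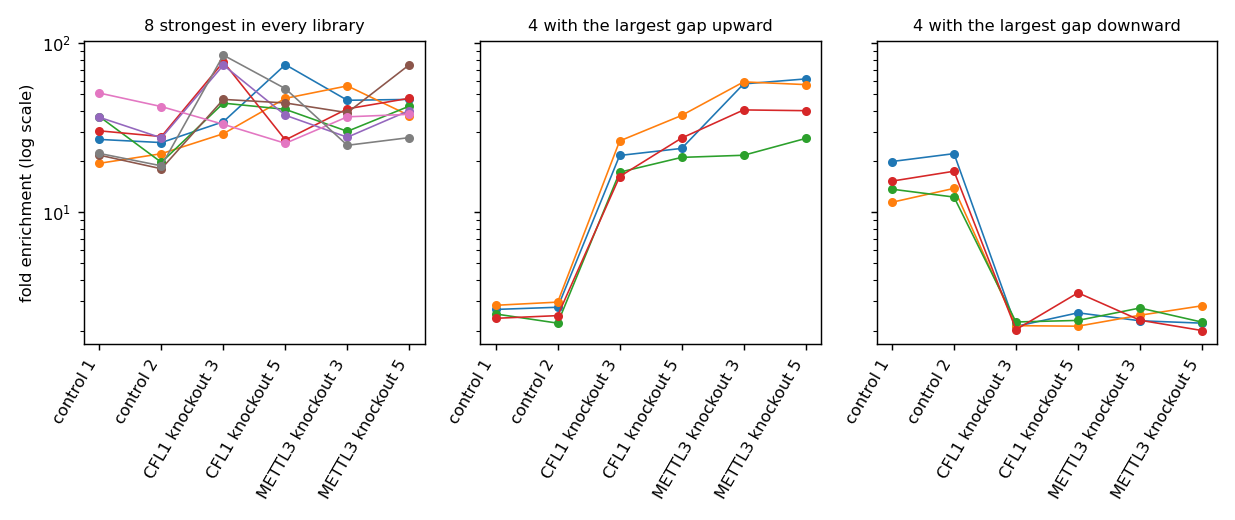
Fold enrichment (y axis, log scale) in each of the 6 libraries (x axis) at the 8 regions strongest in every library, the 4 with the largest upward and the 4 with the largest downward gap in rank, 1 coloured line per region joining its 6 values. The 2 libraries of a group sit together in the middle and right panels, with control at 2.21 to 2.95 in the middle and 11.5 to 22.3 on the right. The choice by rank gap between groups favours this picture.

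Regions were clustered along the genome. The median distance to the nearest other region was 5758 bp, 27.7% had one within 1 kb and 58.7% within 10 kb, while 7.71% had none within 100 kb. The densest 100-kb stretch was chr16:2604113-2701893, with 32 regions covering 28.7% of it. Next were chr1:1287542-1380838 with 22 regions, and chr17:46620160-46714267 and chr12:54329186-54424335 with 20 each.

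The run on chromosome 16 stood out by density and, in the knockout libraries but not in control, by strength. Median fold enrichment over its 32 regions was 4.55 and 5.47 in control 1 and 2. It was 29.4 and 23.3 in the CFL1 libraries, and 19.3 and 23.7 in the METTL3 libraries. The median percentile was 33.8 and 44.9 in control and 91.8 to 98.4 in the knockouts. Of the 32 regions, 23 ranked higher in all 4 knockout libraries and 1 ranked lower, where 19.5% of all regions found in the 6 libraries ranked higher. Knockout peaks there were wide, with medians of 1655 to 1762 bp against 504.5 and 722.5 bp in control. The 32 regions were met by 36 and 33 control peaks but by only 24 to 27 peaks of a knockout library, so neighbouring regions share knockout values and are not independent. In the middle of the run, at chr16:2647516-2648496, the order was not seen, with 11 and 8.72 in control and 4.20 to 8.06 in the knockouts. Ranks higher in the knockouts also prevailed in 2 shorter runs, named after their values were seen: 10 of 15 regions at chr22:16122308-16185026 ranked higher in all knockouts and 1 lower, and 8 of 13 at chr14:19658102-19720876 ranked higher and none lower. The runs on chromosomes 1 and 17 did not share the pattern. On chromosome 1, 6 of 22 regions ranked higher and 5 lower in all knockouts, and on chromosome 17, 2 of 20 higher and 9 lower.

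**Figure D5:**
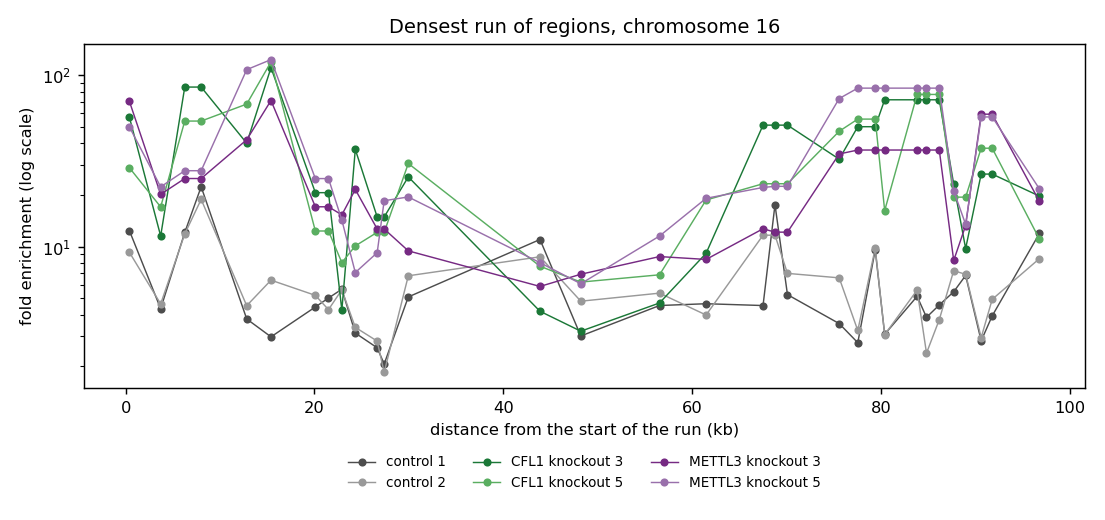
Fold enrichment (y axis, log scale) at the 32 regions of the densest run on chromosome 16 by distance from its start in kb (x axis), 1 line per library. The 4 knockout lines run above both control lines at most points and meet them between 40 and 60 kb, and flat stretches mark neighbouring regions that meet the same knockout peak.

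The share of narrow control peaks that qualified was 25.7% in control 1 and 24.7% in control 2 over all of chromosomes 1 to 22. By the mean of both libraries it was highest on chromosome 21, at 34.3% and 34.2%, then on chromosome 16, at 28.4% and 28.3%, and lowest on chromosome 3, at 23.2% and 22.3%. Chromosome 1 held the most regions (1934) and chromosome 21 the fewest (303). The median percentile of a chromosome's regions lay above both control values in each knockout library on 4 of 22 chromosomes and below both on 5. The shifts were small: on chromosome 12 the median percentile was 47.2 and 48.6 in control and 43.8 to 44.5 in the knockouts. On chromosome 2 it was 50.4 and 51.4 in control and 52.2 to 53.8 in the knockouts.

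Narrow control sites were also sorted by the number of knockout libraries that called them, among sites of both control libraries. There were 23642 regions called in no knockout library, 3773 in 1, 3808 in 2, 4399 in 3 and 19205 in all 4. Sites called in none or in all 4 were thus the most frequent, and those in between few. Median control fold enrichment was 4.15 and 3.83 in control 1 and 2 for sites in no knockout library, and 5.82 and 5.88 for sites in all 4. Median control width was 304 and 310 bp (303.5 in control 1) against 634 and 671 bp. A wider peak meets another by 1 bp more easily, so width is not independent of the rule. Within a class of control strength, the lower control −log10 q between 20 and 50, a difference in width was also seen. Control peaks were 364 and 381 bp wide at the 1829 sites in no knockout library. They were 629 and 671 bp wide at the 4244 sites in all 4. Strength was not matched within the class, so the widths are a description. The control summits were 24 bp apart at sites in no knockout library and 12 bp at sites in all 4. Within classes of −log10 q this order turned, with 10 bp and 12 bp at 20 to 50, and 34 bp and 47 bp at 2 to 5. Another site of the same class lay within 10 kb at 71.1% of sites in no knockout library and at 58.7% of those in all 4, but at only 16.8% to 22% of the classes in between, which hold fewer sites.

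Near the width limit, the 3 regions just inside had a widest control peak of 1999, 1999 and 1998 bp. The first, chr1:247149487-247151487, had fold enrichments of 13.8, 10.5, 5.74, 10.1, 13.6 and 9.999 from control 1 to METTL3 knockout 5. Of the 3 sites just outside, the first, chr8:8233657-8235656, 2000 bp wide, had 12.4, 14.5, 3.8, 6.51, 4.77 and 7.23. At 236 regions the widest of the qualifying control peaks was 1900 bp or more. A further 10731 narrow control peaks were called in 5 libraries and missed only 1.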

How the data were processed

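m6A-seq of total RNA from PANC-1 was deposited as 3 peak lists, for control, CFL1 knockout and METTL3 knockout. These lists rest on 12 of the 32 labelled samples (20 not analysed here), grouped by their titles. The submitters' processing notes name the aligner STAR, the peak caller MACS2, bedtools and the build hg19, without giving versions, settings or the use of input. From the deposited files this account uses the interval and summit (position in bp), the fold enrichment (a ratio) and −log10 q, all as the authors gave them. By their peak names, the lists each hold 2 libraries called separately.

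Overlaps and joined regions were computed in Python 3.11.15 with pandas 2.3.3, numpy 2.4.6 and scipy 1.17.1, tested on simulated data and checked against bedtools. Coordinates are 1-based, in hg19. Named regions were, by rule, the 8 with the highest lowest-of-6 rank, the largest rank gaps between groups, the densest runs and the regions next to the width limit, and those of 1 kind lay at least 1 Mb apart. A rank gap is the lowest rank on the higher side minus the highest on the lower side. Members and lists were chosen with earlier results of these data known. Summit examples, strength and width classes and windows were chosen after seeing the values. The planned permutation test of peak width is not given, since the rule limits control width. Gene annotation, sequence and motifs were not used here, since no hg19 genome was used. Read depth is unknown. Alternatives covered the overlap, thresholds, width limit, joining, ranking and leaving out each library.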

Additional observations from a re-analysis of the deposited data

How the results depend on the processing

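With a minimum −log10 q of 10 there were 12064 regions, and with a minimum fold enrichment of 4 there were 8992, both by construction. The number was 19883 to 20791 without each library in turn. The other 5 alternatives gave 15493 to 19437. Regions ranked higher and lower in the CFL1 knockout numbered 3760 and 3708 at that −log10 q and 2488 and 2602 at that fold, and in the METTL3 knockout 3840 and 3741, and 2547 and 2649. Without each library these counts ran from 5956 to 8446, 6224 to 8669, 6098 to 8143 and 6229 to 8375 in the same order. Leaving out a library of the groups compared makes the rank condition easier to meet. The low ends came from leaving out a library of the other knockout, which eases only the overlap rule. The summit distance from control to knockout minus that within groups, 99.6 bp, moved by more than the SD of 4.83 bp between pairs to 91.8 bp with 50% overlap, 106 bp at a fold of at least 4, 86.1 bp for control peaks under 1000 bp, 91.7 bp for the nearest summits and 84.1 bp at regions with 1 peak in every library (added after seeing the data), and ran from 91.5 to 101.7 bp without each library. It stayed positive in all 15 alternatives. The CFL1 knockout minus control width, 1.5 bp, was 41.3 bp at regions with 1 peak in every library and ran from -28 to 49.5 bp without each library, so its sign depends on single libraries. It was -28 bp without CFL1 knockout 5 and 49.5 bp without control 2. For the METTL3 knockout it ran from 21.5 bp, without METTL3 knockout 3, to 89 bp, without control 2, and stayed positive in all 14 alternatives. For the moves with no stated construction, the cause was not tested. No paired analysis was possible because control (1 and 2) and the knockouts (3 and 5) share no number in their peak names. The knockouts share 3 and 5, which match no replicate number in the labels, and no test set them against each other. Their summits were 40 and 33 bp apart at the same number and 38 and 33 bp at different numbers. The planned annotation and motif counts were not run. Read depth is unknown, so a site missing from 1 library may lie just under its threshold.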

Other observations

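Along the genome, regions that ranked higher in all 4 knockout libraries made up high shares of a few windows. Of 387 windows of 1 Mb with at least 15 regions, 8 had at least 50% of their regions ranked higher and 1 at least 50% ranked lower, against 19.5% and 21.3% over all regions found in the 6 libraries. The windows were chosen by these shares, so they are a description. The highest share was on chromosome 22 from 16 to 17 Mb, where 10 of 15 regions ranked higher and median fold enrichment was 4.95 and 5.60 in control and 12.7 to 19.6 in the knockouts. These are the same 15 regions as the run at chr22:16122308-16185026 given above. Neighbouring regions of a window can share a peak. On chromosome 7 from 74 to 75 Mb, 17 of 28 ranked higher and none lower, with medians of 4.33 and 4.95 in control and 8.99 to 15.2 in the knockouts. On chromosome 14 from 19 to 20 Mb, 13 of 22 ranked higher and none lower, and on chromosome 17 from 44 to 45 Mb, 15 of 27 higher and 3 lower. The chromosome 14 window holds the run at chr14:19658102-19720876 given above.

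The highest share of regions ranked lower was on chromosome 20 from 48 to 49 Mb, with 8 of 15 lower and none higher. Its median percentile was 50.02 and 49.5 in control and 25.2 to 44.5 in the knockouts. On chromosome 19 from 18 to 19 Mb, 13 of 28 ranked lower and 2 higher, with a median percentile of 47.7 and 46.4 in control and 15.2 to 28.2 in the knockouts.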
